A study of Mus musculus with 3 samples.

Results

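Dlk1 and 9 other imprinted growth genes (Meg3, Igf2, H19, Cdkn1c, Peg3, Mest, Plagl1, Ndn and Grb10) were followed across the cell types of the embryonic soft palate. The 10 genes were chosen by name from the 32285 genes counted. The data came from droplet single-cell RNA sequencing of the posterior palate of mouse embryos at E14.5, with 2 control libraries and 1 mutant library in the C57BL/6 background. The control embryos were littermates with floxed Tgfbr1 alleles (Tgfbr1 fl/fl or Tgfbr1 fl/+) and no Cre. The mutant, Osr2-Cre;Alk5fl/fl, lost the type I TGF-β receptor Alk5, encoded by Tgfbr1, in the cells in which Osr2-Cre is active, which are palatal mesenchymal cells and not myogenic cells. All embryos therefore carried floxed Tgfbr1, and the sources used here do not say whether embryos were pooled into a library.

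In an imprinted gene, only the copy inherited from one parent is expressed, and several imprinted genes control how much embryonic tissues grow. They often lie in clusters in which a protein-coding growth gene and a long noncoding RNA are expressed from opposite parental chromosomes, as for Dlk1 and Meg3 or for Igf2 and H19. Many are high in embryonic mesenchyme and muscle precursors and fall after birth. The sequencing counted transcripts from both parental copies together, so the parent of origin was not measured.

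The 10 genes were spread over 5 chromosomes of the mouse genome (coordinates in GRCm38, GENCODE M21). Dlk1 (chr12:109452823-109463336) and Meg3 (chr12:109541001-109571726) lay on the plus strand, 77664 bases apart. H19 (chr7:142575529-142578143) and Igf2 (chr7:142650766-142666816) lay 72622 bases apart on the minus strand, and Cdkn1c (chr7:143458339-143461050) lay 791522 bases beyond Igf2. Chromosome 7 also held Peg3 (chr7:6703892-6730431, minus strand) and Ndn (chr7:62346569-62350262, plus strand). Mest (chr6:30723547-30748465, plus strand), Plagl1 (chr10:13060504-13131694, plus strand) and Grb10 (chr11:11930508-12038683, minus strand) each lay alone among these genes.

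RefSeq gave 300-base windows around annotated start sites (GRCm38.p6, 250 bases before to 50 after the start) for 8 of the 10 genes, 15 windows in all. H19 and Cdkn1c had none in that table. Of these, 4 are shown because the levels of Dlk1, Meg3 and Plagl1 were among the most alike across cell types and cells, and because Peg3 was the gene most often higher in the mutant library. Capitals mark matches, on either strand, to a TATA box (TATAAA), a GC box (GGGCGG), the cAMP response element (TGACGTCA) and the motif bound by the zinc finger protein that Plagl1 encodes (GGGGCCCC). The cAMP response element was added to the search after the sequences had been seen.
Dlk1, chr12:109452573-109452872, plus strand: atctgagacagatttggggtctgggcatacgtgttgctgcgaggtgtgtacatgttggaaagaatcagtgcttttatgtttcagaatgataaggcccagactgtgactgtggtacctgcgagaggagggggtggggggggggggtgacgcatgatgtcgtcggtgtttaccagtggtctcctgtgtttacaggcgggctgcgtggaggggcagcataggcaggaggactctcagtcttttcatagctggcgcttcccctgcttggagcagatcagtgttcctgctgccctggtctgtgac
Meg3, chr12:109540746-109541045, plus strand: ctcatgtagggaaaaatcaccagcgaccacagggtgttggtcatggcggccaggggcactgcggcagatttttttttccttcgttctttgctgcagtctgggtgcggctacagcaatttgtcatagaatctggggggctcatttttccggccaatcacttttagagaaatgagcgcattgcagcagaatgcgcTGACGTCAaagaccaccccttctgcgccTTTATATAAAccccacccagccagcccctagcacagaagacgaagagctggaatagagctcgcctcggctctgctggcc
Plagl1, chr10:13090582-13090881, plus strand: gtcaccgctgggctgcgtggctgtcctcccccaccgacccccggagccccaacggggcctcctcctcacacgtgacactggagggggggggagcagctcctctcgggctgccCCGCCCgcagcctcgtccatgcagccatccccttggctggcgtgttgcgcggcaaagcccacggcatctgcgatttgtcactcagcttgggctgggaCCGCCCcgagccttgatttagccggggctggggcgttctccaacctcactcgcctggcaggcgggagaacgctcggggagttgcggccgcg
Peg3, chr7:6730370-6730669, minus strand: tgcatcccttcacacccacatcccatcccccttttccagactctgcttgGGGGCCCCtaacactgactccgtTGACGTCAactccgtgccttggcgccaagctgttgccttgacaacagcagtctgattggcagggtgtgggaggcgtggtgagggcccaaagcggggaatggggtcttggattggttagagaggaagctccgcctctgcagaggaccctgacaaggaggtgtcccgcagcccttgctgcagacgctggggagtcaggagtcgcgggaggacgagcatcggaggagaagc

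The Dlk1 window held none of the 4 motifs, and the Plagl1 window held 2 GC boxes. The Meg3 window held a cAMP response element and 2 overlapping matches to the TATA box on opposite strands. The cAMP response element occurred in 1.79% of all 32851 RefSeq windows of this length and the TATA box in 13.6%. Peg3 shared the cAMP response element with Meg3 and was the only one of the 15 windows with the Plagl1 motif, which 1.08% of all windows held. GC boxes occurred in 8 of the 15 windows and in 35.7% of all windows. The numbers of CpG dinucleotides were 9 for Dlk1, 13 for Meg3, 13 for Peg3 and 26 for Plagl1, where the median of all windows was 7. These matches describe the letters only.

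The libraries held 2816, 4067 and 8690 barcodes with 22624711, 27814907 and 63505144 unique molecular identifiers (UMIs, each marking 1 captured transcript) in control 1, control 2 and the mutant. Cells were sorted into types by marker genes that include none of the 10 genes, and UMIs were summed per type and library and divided by the total of that sum, giving normalised counts in CPM, a scale on which each sum has the same total. Tgfbr1, the deleted gene, had 53.9 and 58.1 CPM in the controls and 51.8 CPM in the mutant, and these counts of transcript ends do not show whether the deleted part was lost. The libraries shared 18 to 49 barcodes in pairs. Control 1 stood apart in transcripts of other cell types: the summed markers of macrophages came to 61.6 CPM in its mesenchymal cells against 21.5 CPM in control 2 and 4.71 CPM in the mutant. Where leaving out control 1 ended a call of any of the 10 genes, this is said beside it. Neutrophil markers gated 55 cells in control 1 and 0 in the others, and cartilage markers gated 106 cells in the mutant and 0 in both controls.

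All 10 genes had their lowest level in macrophages among the 7 classes with at least 20 cells in each library, and 9 of the 10 had their highest mean level in perimysial cells, the palatal mesenchymal cells next to the developing muscle. The exception was Cdkn1c, highest in myogenic cells. Outside these 7 classes, Dlk1, H19, Igf2, Mest, Peg3 and Plagl1 had higher means in endothelial, glial, mural or cartilage cells, given below. Palatal mesenchymal cells (1163, 2004 and 3656 cells in control 1, control 2 and the mutant) were those with markers such as Twist1, Prrx1 and Pdgfra. Within them, perimysial cells had at least 2 UMIs of Hic1 and Ebf2 (124, 70 and 121 cells), midline cells at least 2 of Lsp1, Wnt16 and Sostdc1 (300, 716 and 626 cells) and osteogenic cells at least 2 of the bone genes Sp7, Ibsp, Ifitm5, Alpl and Phex (113, 42 and 399 cells). Tendon cells had at least 2 of Scx, Tnmd and Mkx (6, 18 and 66 cells), and progenitor cells had both Tfap2b and Eya4 (3, 37 and 89 cells). Both subsets were too small to be among the 7 classes. Cells in none of the subset gates (506, 974 and 1943 cells) are called the remaining mesenchyme. Of the perimysial genes set aside as checks and not used for gating (Aldh1a2, Meox1, Agtr2 and Cxcl12), only Agtr2 is compared between classes here. It had 363, 320 and 115 CPM in perimysial cells against 158, 137 and 68.1 CPM in the remaining mesenchyme. The mutant perimysial level was thus below that of the remaining mesenchyme in both controls. The late bone genes Bglap and Dmp1 had at most 4 UMIs in the osteogenic cells of any library, so these markers were at or near 0. Spp1, also set aside as a check, is not given here, and how mature these cells were was not tested. Their summed gate markers stood at 879 CPM in control 1, 1748 CPM in control 2 and 2380 CPM in the mutant.

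**Figure D1:**
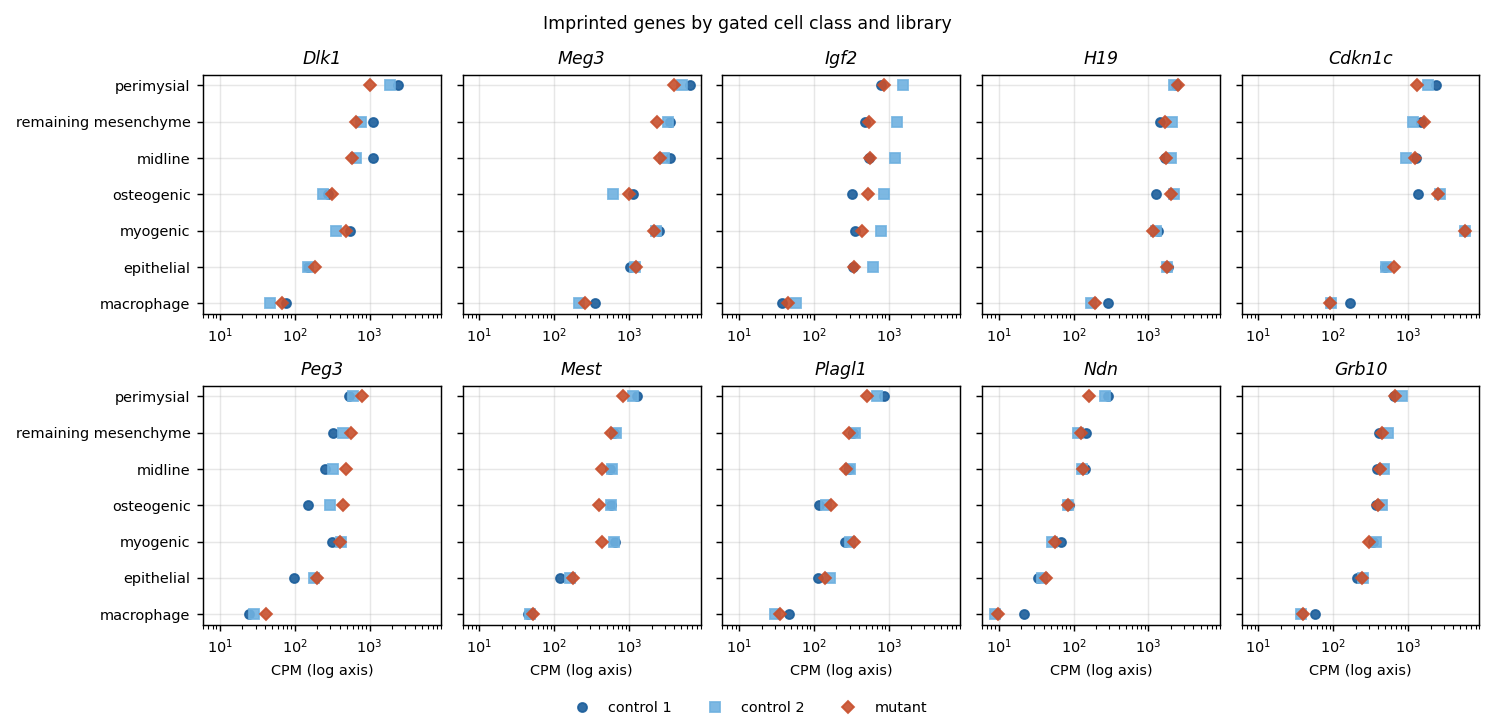
CPM on a log axis for each of the 10 imprinted genes (panels) in 7 cell classes (lines), with 1 point per library: control 1 (circles), control 2 (squares) and the mutant (diamonds). By their mean, the points for perimysial cells lie furthest to the right for all genes but Cdkn1c, which reached 5736 to 5835 CPM in myogenic cells, and those for macrophages lie furthest to the left for all genes.

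Dlk1 encodes a transmembrane protein of the Notch ligand family that keeps precursor cells undifferentiated. In perimysial cells it stood at 2396 CPM (control 1), 1879 CPM (control 2) and 1010 CPM (mutant), a mean of 1762 ± 700.2 (SD, n = 3). In the remaining mesenchyme it was 1128, 757 and 660 CPM. The perimysial value was above that of the remaining mesenchyme in all 3 libraries, but the ranges over libraries overlapped. Below the remaining mesenchyme came midline cells (1120, 669 and 577 CPM), myogenic cells (549, 358 and 489 CPM), osteogenic cells (278, 236 and 313 CPM), epithelial cells (152, 152 and 190 CPM) and macrophages (77.4, 46.2 and 68.3 CPM). From midline cells downwards no 2 neighbours in this order overlapped, whereas perimysial cells, the remaining mesenchyme and midline cells overlapped with their neighbours. Macrophages are not known for Dlk1, and whether their counts came from free RNA was not tested.

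After every cell had been thinned to 2000 UMIs, a Dlk1 UMI was found in 68.0% of the 1160 mesenchymal cells of control 1 (exact Clopper-Pearson 95% interval 65.2 to 70.7%), 62.7% of the 1920 of control 2 (60.5 to 64.9%) and 59.3% of the 3551 of the mutant (57.6 to 60.9%). Among perimysial cells it was 91.1%, 84.8% and 71.2%. Among macrophages it was 11.8% of 34 cells, 10.7% of 75 cells and 5.2% of 135 cells. Before thinning, the mesenchymal shares were 89.2%, 84.3% and 85.2% and the macrophage shares were 62.9% in control 1 and 13.1% in the mutant. The median UMIs per cell were 7924, 5400 and 5869 in mesenchymal cells and 11067, 6193 and 5346 in macrophages. These intervals, and those on CPM below, cover counting error only. Thinning left out 3, 84 and 105 shallower mesenchymal cells.

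Meg3 is the noncoding RNA of the Dlk1 cluster. It followed Dlk1, with 6416 and 5083 CPM in perimysial cells of the controls and 3996 CPM in those of the mutant, 3519, 3265 and 2328 CPM in the remaining mesenchyme, and 1126, 617 and 985 CPM in osteogenic cells. The perimysial range lay above that of every other of the 7 classes. Myogenic cells had 2494, 2308 and 2151 CPM, more than osteogenic and epithelial cells (1014, 1212 and 1239 CPM). The last pair overlapped. Macrophages had 345, 217 and 261 CPM of Meg3.

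Igf2, a secreted growth factor, and H19, the noncoding RNA of its cluster, were more even. Igf2 in the remaining mesenchyme stood at 481 CPM (control 1), 1277 CPM (control 2) and 539 CPM (mutant). Control 2 was the highest library for Igf2 in all 7 classes, and the controls differed by 0.60 to 1.44 on the log2 scale. Apart from macrophages (37.6, 56.8 and 45.1 CPM), no class was set apart from its neighbours by more than this spread between libraries. H19 had 1807, 1790 and 1794 CPM in epithelial cells and 1427, 2061 and 1686 CPM in the remaining mesenchyme, and the 5 non-muscle classes other than macrophages overlapped one another in order. H19 was lower in myogenic cells (1333, 1280 and 1141 CPM) and in macrophages (290, 170 and 196 CPM).

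Cdkn1c encodes p57, an inhibitor of cyclin-dependent kinases that holds cells out of the cell cycle. It reached 5736, 5833 and 5835 CPM in myogenic cells (mean 5801 ± 56.9, SD, n = 3). Osteogenic cells followed with 1349, 2660 and 2491 CPM and perimysial cells with 2378, 1844 and 1327 CPM, and these overlapped. Epithelial cells had 497, 513 and 657 CPM. Among the transcription factors and signalling adaptors, Peg3 (a zinc finger protein) had 524, 603 and 784 CPM in perimysial cells and 97 to 200 CPM in epithelial cells. Plagl1, a zinc finger transcription factor that inhibits growth, had 862, 694 and 515 CPM in perimysial cells against 329, 355 and 295 CPM in the remaining mesenchyme. Its perimysial range lay above that of every other of the 7 classes.

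Mest, a member of the hydrolase fold family, had 1286, 1129 and 826 CPM in perimysial cells and 636, 665 and 573 CPM in the remaining mesenchyme, without overlap. Ndn, which encodes the growth suppressor necdin, had 286, 259 and 160 CPM in perimysial cells and 145, 115 and 125 CPM in the remaining mesenchyme. Grb10, an adaptor that dampens insulin and IGF receptor signalling, had 649, 832 and 661 CPM in perimysial cells and 415, 536 and 451 CPM in the remaining mesenchyme. For these 3 genes, too, the perimysial range lay above that of every other of the 7 classes. The few tendon cells overlapped perimysial cells in Grb10 (613 to 670 CPM) and Mest (930 to 1216 CPM), but not in Ndn (82.2 to 109 CPM). The few progenitor cells overlapped them in Ndn (103 to 276 CPM), but not in Grb10 (399 to 620 CPM) or Mest (430 to 622 CPM).

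Cell types were then compared within libraries, with edgeR's quasi-likelihood test and library as a block, because each type was measured in all 3 libraries. The block takes up differences in level between libraries. The p-values measure the differences between types against how much those differences varied over the libraries, a spread shared over the types of a fit. The libraries were 2 controls and 1 mutant, so any effect of genotype on these differences is part of that spread. A gene was called where its Benjamini-Hochberg adjusted p over all genes tested was under 0.05 and its change at least 2-fold. In epithelial cells against the mesenchyme, 8 of the 10 genes were called, all lower, where 11.9% of 13652 genes were called lower. The largest decreases were those of Dlk1 (log2 fold change -2.33, SE 0.18) and Mest (-2.12, SE 0.16), with edgeR Benjamini-Hochberg adjusted p-values of 1.44e-10 and 9.79e-11. Igf2 was lower by less than 2-fold (-0.86, SE 0.11), and H19 did not pass (-0.08, SE 0.12). The median over the 10 genes was -1.41, against -0.07 over all genes tested. In macrophages all 10 genes were called lower, by -2.82 (H19) to -3.73 (Igf2) on the log2 scale, where 21.0% of genes were called lower.

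In myogenic cells, Cdkn1c was the only gene of the 10 to be called, with a log2 fold change of 2.29 (SE 0.13, edgeR Benjamini-Hochberg adjusted p = 2.28e-12), where 5.85% of genes were called higher. At any fold 4 of the 10 were lower than in the mesenchyme, where 24.8% of genes were: Ndn (-0.90, SE 0.16), Dlk1 (-0.56, SE 0.17), H19 (-0.30, SE 0.12) and Igf2 (-0.29, SE 0.11). That number was 2 without control 1, 1 without control 2 and 2 without the mutant. The median over the 10 genes was -0.19 and that over all genes -0.32.

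Endothelial and neuronal cells numbered 15 and 11 in control 1, and were compared in a fit with at least 10 cells per library, chosen after the data had been seen. In endothelial cells (15, 84 and 239 cells) 6 of the 10 genes were called, where 26.4% of 13893 genes were called in either direction. Mest was higher, with 1915, 1816 and 1532 CPM against 713, 659 and 577 CPM in the mesenchyme (log2 fold change 1.42, SE 0.18). Dlk1, at 61.1, 57.3 and 38.3 CPM, was lower by -3.99 (SE 0.30) and at the level of the macrophages, and Meg3 was lower by -3.63 (SE 0.23). Igf2 and Plagl1 did not pass in endothelial cells (-0.14, SE 0.25, and 0.06, SE 0.20). In neuronal cells (11, 11 and 313 cells) 7 of the 10 genes were called, all lower, where 16.5% of genes were called lower. Meg3, at 3159, 4678 and 3502 CPM, and Ndn, at 246, 132 and 177 CPM, were not called there (0.16, SE 0.20, and 0.32, SE 0.20), so Meg3 was high in neuronal cells where Dlk1 was at 225, 395 and 90.4 CPM. Mural cells, the pericytes and smooth muscle of vessels, were too few to test (7, 4 and 27 cells). They had 3843, 1836 and 2624 CPM of Dlk1, each from few cells. Their mean for H19 was 2706 CPM, against 2328 CPM in perimysial cells. The 106 cartilage cells of the mutant had 4783 CPM of H19 and 1278 CPM of Igf2, with no control cells to set beside them. They also had 1111 CPM of Peg3 and 795 CPM of Plagl1, above the perimysial means of 637 and 690 CPM. Glial cells (8, 20 and 61 cells) had a mean of 1165 CPM of Mest, against 1080 CPM in perimysial cells.

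Within the palatal mesenchyme, 8 of the 10 genes were higher in perimysial cells at any fold, while in osteogenic cells 4 were lower and 1 was higher. Against the remaining mesenchyme, Plagl1 was called higher in perimysial cells (log2 fold change 1.03, SE 0.14, edgeR Benjamini-Hochberg adjusted p = 0.000111), where 0.886% of 12187 genes were called higher. Without the 2-fold requirement, a rule added after the data had been seen, 8 of the 10 genes passed the adjusted p of 0.05 and all 8 were higher, where 1.72% of genes were higher by this rule. Beside Plagl1 these were Dlk1 (0.98, SE 0.17), Ndn (0.80, SE 0.14), Mest (0.72, SE 0.10), Meg3 (0.71, SE 0.12), Grb10 (0.56, SE 0.09), Igf2 (0.52, SE 0.12) and Peg3 (0.49, SE 0.13). H19 (0.41, SE 0.12, edgeR Benjamini-Hochberg adjusted p = 0.0781) and Cdkn1c (0.34, SE 0.21, edgeR Benjamini-Hochberg adjusted p = 0.525) did not pass. All but Cdkn1c were above the remaining mesenchyme in all 3 libraries. For Cdkn1c the log2 ratio of perimysial cells to the remaining mesenchyme was 0.68 in control 1 and 0.66 in control 2. In the mutant it was -0.29. The median of the 10 genes was 0.63 and that of all genes -0.01. Without control 1, 6 of the 10 passed at any fold and 0 were called at 2-fold or more; without control 2 the counts were 6 and 1, and without the mutant 6 and 3.

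In osteogenic cells Meg3 (log2 fold change -1.50, SE 0.13) and Dlk1 (-1.30, SE 0.18) were called lower, with edgeR Benjamini-Hochberg adjusted p-values of 2.49e-08 and 1.26e-05, where 4.49% of genes were called lower. At any fold 5 of the 10 genes passed, where 21.4% of genes passed in either direction: Plagl1 (-0.91, SE 0.15) and Peg3 (-0.45, SE 0.14) were also lower, and Cdkn1c was higher (0.82, SE 0.21). The Cdkn1c difference was not shared by all libraries: its log2 ratio of osteogenic to remaining mesenchyme came to -0.14 (control 1), 1.19 (control 2) and 0.62 (mutant). Control 2 had only 42 osteogenic cells, and without it 3 of the 10 genes passed at any fold, all lower. Without control 1, 3 passed as lower and 2 as higher at any fold. At 2-fold or more 3 were then called, 1 of them higher. In midline cells 0 of the 10 genes were called and 0 passed at any fold by edgeR, while 22 genes, 0.181% of those tested, were called in either direction. DESeq2 also called 0 of the 10 there, and the numbers of all genes at an unadjusted p under 0.05 were 919 by edgeR and 412 by DESeq2.

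**Figure D2:**
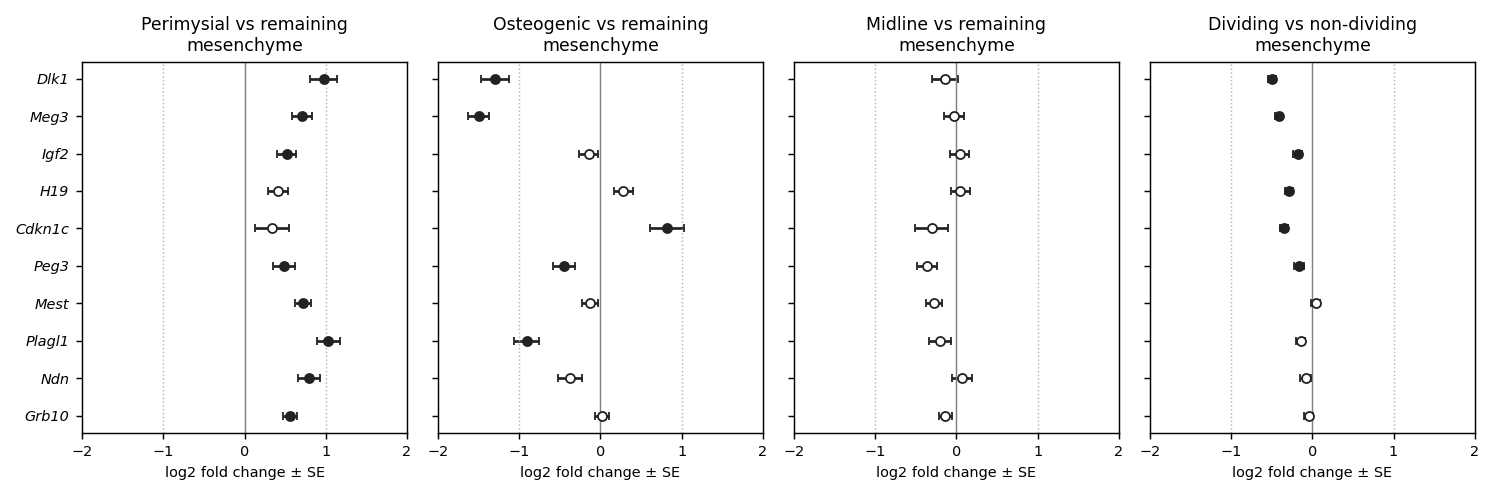
Log2 fold changes (points) with standard errors (bars) of the 10 genes from edgeR's quasi-likelihood test in perimysial, osteogenic and midline cells against the remaining mesenchyme, and in dividing against non-dividing mesenchyme. Filled points have an adjusted p under 0.05 and dotted lines mark 2-fold. Of the points for perimysial cells 8 are filled and all lie to the right of 0, and Dlk1 and Meg3 lie beyond the 2-fold line on the left in osteogenic cells.

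Dividing mesenchymal cells, with at least 3 of 7 markers such as Mki67 and Top2a (327, 714 and 1218 cells), were compared with those that had none (306, 678 and 1673 cells). None of the 10 genes reached 2-fold, where 3.38% of 12349 genes were called in either direction by edgeR, and DESeq2 also called 0 of them. At any fold 6 of the 10 passed by edgeR and all 6 were lower in dividing cells, where 10.4% of genes were lower. By DESeq2 4 passed at any fold, all lower, where 408 of 12349 genes were lower. The number was 4 without control 2 and with 1 more marker per gate, and 7 without control 1. Median UMIs per cell were 10897, 6963 and 7862 in dividing and 6930, 4629 and 4681 in non-dividing cells. The part of this difference in depth was not tested. Dlk1 was lowered most, by -0.49 (SE 0.05), with 997, 648 and 477 CPM in dividing and 1341, 875 and 650 CPM in non-dividing cells. Meg3 (-0.41, SE 0.05), the cell cycle inhibitor Cdkn1c (-0.34, SE 0.05), H19 (-0.28, SE 0.05), Igf2 (-0.18, SE 0.06) and Peg3 (-0.16, SE 0.06) followed. Plagl1 did not pass (-0.14, SE 0.06, edgeR Benjamini-Hochberg adjusted p = 0.0684). Dividing cells were lower than non-dividing cells of the same library for Dlk1 and Meg3 in all 3 libraries, while the ranges over libraries overlapped.

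Of 32 other imprinted genes listed for comparison, 28 could be tested between lineages. In epithelial cells 15 were called lower, led by Rtl1 (log2 fold change -6.10, SE 1.62), Dio3 (-2.64, SE 0.41) and Peg10 (-2.25, SE 0.25), and 1 was called higher, Nnat (1.19, SE 0.18), where 11.9% of all genes were lower and 8.61% higher. In macrophages 19 were called lower, led by Magel2, Dio3 and Phlda2, where 21.0% of all genes were. Some of these leading genes were low even in the mesenchyme of control 1, control 2 and the mutant. Rtl1 had 1.06, 2.70 and 1.40 CPM there, and Phlda2 had 6.08, 2.16 and 8.01 CPM. Magel2 had 14.7, 13.3 and 15.3 CPM, and Dio3 had 22.1, 9.89 and 8.60 CPM. In myogenic cells Nnat (2.03, SE 0.18), Zdbf2 (1.44, SE 0.19) and Peg12 (1.21, SE 0.15) were called higher, and Klf14 (-3.43, SE 0.75) and Zrsr1 (-1.28, SE 0.45) lower, where 5.85% of all genes were higher and 17.7% lower. In perimysial cells 4 of 27 were called, all higher: Zim1 (1.20, SE 0.24), Gnas (1.15, SE 0.12), Magel2 (1.15, SE 0.27) and Dio3 (1.06, SE 0.26). The share of all genes called higher there was 0.886%. In osteogenic cells 5 of 27 were called, all lower, led by Dio3 (-1.89, SE 0.37), Klf14 (-1.33, SE 0.41) and Mirg (-1.30, SE 0.25), where 4.49% of all genes were called lower. Rian was another of the 5 (-1.19, SE 0.14), so that Rian, Mirg and Dio3, which lie in the same cluster as Dlk1 and Meg3, were all lower there. In the dividing comparison 0 of 26 were called by either edgeR or DESeq2. Without control 1, 10 of 23 were called lower in epithelial cells, 17 of 23 in macrophages and 3 of 27 in osteogenic cells. In perimysial cells 1 of 27 was then called higher, and in dividing cells 1 of 26 was called lower. In myogenic cells 3 of 23 were higher and 1 was lower.

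The genes whose levels were most alike were found by Pearson's r of log2(CPM + 10) over 21 sums (7 cell classes in 3 libraries) among 5108 genes with at least 50 CPM in a sum. The 3 genes most like Dlk1 were Meg3 (r = 0.957), Ndn (r = 0.956) and Plagl1 (r = 0.955), all among the 10. Those most like Meg3 were Plagl1 (r = 0.971), Dlk1 (r = 0.957) and Rian (r = 0.956). For Plagl1 they were Meg3, Dlk1 and Rian (r = 0.952). Ndn was most like Maged2 (r = 0.975) and Mfap4 (r = 0.958), followed by Dlk1. Igf2 and H19 were both most like Ttc3 (r = 0.962 and r = 0.965), and Igf2 next like Igf2r, the receptor that clears it (r = 0.956). Cdkn1c was most like Zdbf2 (r = 0.938), Itm2a (r = 0.930) and Klhl13 (r = 0.928). Mest was most like Grb10 (r = 0.947), Grb10 like Ttc3 (r = 0.959), and Peg3 like Irak1bp1 (r = 0.941). None of these genes was a gate marker. The 21 points share libraries and are dominated by the contrast of macrophages and epithelial cells with mesenchyme, so these values describe the pattern only.

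Across single cells the 10 genes were also correlated. In mesenchymal cells of control 1 thinned to 2000 UMIs (1160 cells), all 45 pairs had a positive Pearson r of log counts, with a median of 0.191. In control 2 (1920 cells) 41 of the 45 pairs were positive, with a median of 0.081, and in the mutant (3551 cells) 36 were positive, with a median of 0.055. Over all pairs of genes with at least 100 CPM in these cells the median r was 0.000 in each library, to 3 decimals, and the 95th percentile was 0.058, 0.053 and 0.045. The genes of these pairs were not matched in level to the 10 genes, and the effect of level on r was not tested. The pairs of these genes above that percentile made up 100% of the 45 in control 1, 77.8% in control 2, and 27 of the 45 in the mutant. The cells of a library share its preparation and free RNA, and the counts of a single cell are sparse.

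Dlk1 and Meg3, neighbours on chromosome 12, were the highest of the 45 pairs in each library, with r = 0.533 (control 1), 0.261 (control 2) and 0.296 (mutant). Igf2 and H19, neighbours on chromosome 7, had r = 0.367, 0.244 and 0.251 and came next to highest in control 2 and the mutant but not in control 1. Meg3 and Plagl1, which lie on different chromosomes, had r = 0.430, 0.216 and 0.199, and Dlk1 and Plagl1 had r = 0.440, 0.153 and 0.153. Dlk1 and Cdkn1c had r = 0.369 and 0.229 in the controls and 0.057 in the mutant, a difference that was not tested. Meg3 and Cdkn1c had r = 0.278, 0.010 and -0.147, the lowest value of any pair in the mutant. Ndn had the lowest r with H19 in both controls (0.060 and -0.071). Among the non-dividing cells alone the median r was 0.251, 0.083 and 0.056, and among the cells of the remaining mesenchyme alone, chosen after the data had been seen, it was 0.207, 0.075 and 0.065. The 95th percentile over all gene pairs was 0.102, 0.077 and 0.055 in the non-dividing cells, with 86.7, 57.8 and 51.1% of the 45 pairs above it. In the remaining mesenchyme it was 0.082, 0.068 and 0.052, with 91.1, 60 and 55.6% above it. Both subsets had smaller shares above it than all mesenchymal cells of the same library.

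**Figure D3:**
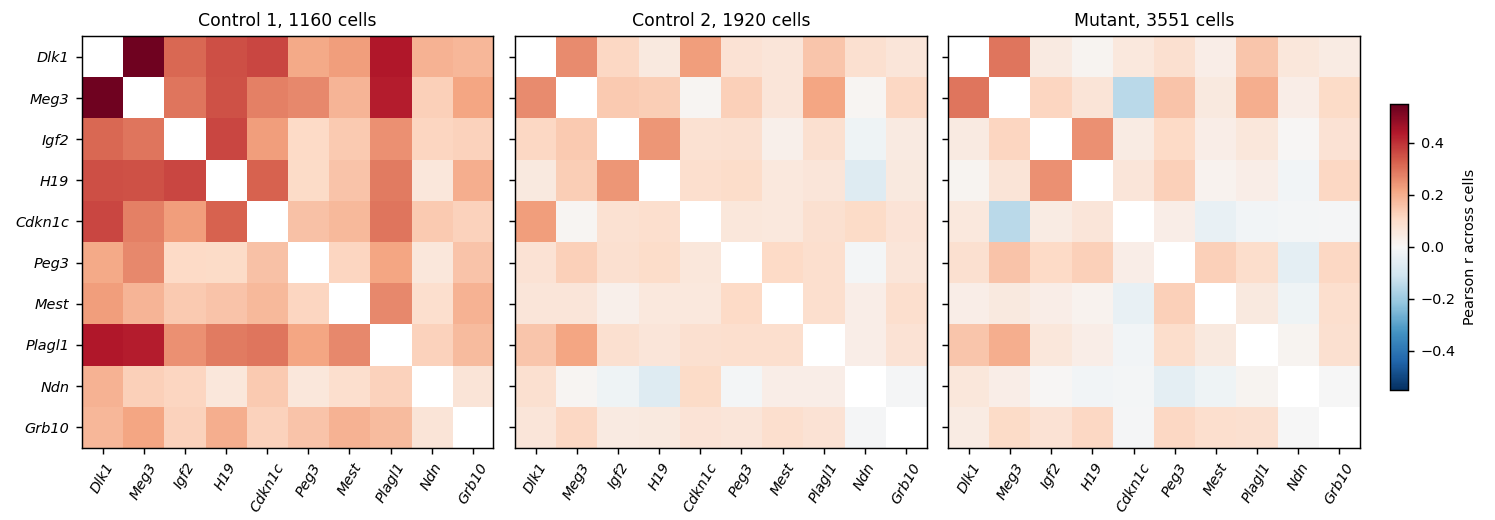
Pearson r across mesenchymal cells thinned to 2000 UMIs for each pair of the 10 genes (colour scale, red positive and blue negative) in control 1, control 2 and the mutant, with white on the diagonal. Dlk1 with Meg3 and Igf2 with H19 are red in all 3 panels, while the panel for control 1 is red throughout.

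The mutant library was set beside the controls to see where loss of Alk5 went with other levels of these genes. With 1 mutant library there is no test between genotypes, and a difference of genotype cannot be told apart from a difference between libraries. The log2 ratio of the mutant to the mean of the log2 control levels is given beside the gap between the controls. A gene is counted as outside the controls where the mutant lay beyond both, by more than the gap and by at least 0.5. With 1 control left out there is no gap. A gene is then counted where the mutant differed from the other control by at least 0.5, a looser rule. In the mesenchyme this held for 3 of the 10 genes, where 8.61% of 2879 genes with at least 50 CPM were outside in either direction. Here and below, at least 50 CPM means in the mutant or in both controls, so a gene could enter these shares through the mutant alone. Dlk1 was lower, at 552 CPM against 1195 and 754 CPM (log2 ratio -0.78, gap 0.66). Meg3 was lower, at 2339 CPM against 3645 and 3132 CPM (-0.53, gap 0.22). Peg3 was higher, at 599 CPM against 312 and 407 CPM (0.75, gap 0.38). Without control 1, Dlk1 and Meg3 no longer reached the limit of 0.5, and the 2 genes outside were Peg3 and Igf2.

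The scale mattered here. Scaling with TMM factors moved the median log2 ratio of all genes up by 0.14 in the mesenchyme and by 0.11 in perimysial cells, and turned the split of genes outside the controls in the mesenchyme from 67 higher and 181 lower to 152 higher and 100 lower. In perimysial cells the split went from 172 and 278 to 318 and 188. On that scale Peg3 was the only one of the 10 outside the controls in the mesenchyme (0.89), and Dlk1 (-0.65) and Meg3 (-0.39) were not. Osteogenic cells, in which Dlk1 and Meg3 are low, numbered 399 of 3656 in the mutant, 113 of 1163 in control 1 and 42 of 2004 in control 2. Perimysial cells, in which both are high, numbered 121 of 3656, 124 of 1163 and 70 of 2004 in the same order. The part of either subset in these ratios was not tested. The remaining mesenchyme leaves out both, and the cells of the other subset gates as well. In it, 2 of the 10 genes were outside the controls, Meg3 (-0.54, gap 0.11) and Peg3 (0.57, gap 0.45), where 9.36% of genes were. Dlk1 had a log2 ratio of -0.49 there against a gap of 0.57. With TMM, Peg3 alone was outside in the remaining mesenchyme, and without control 1 Igf2 alone was.

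In perimysial cells 6 of the 10 genes were outside the controls and all 6 were lower, where 9.16% of 3034 genes were lower by this rule. The CPM of Dlk1 were 2396 in control 1 (95% exact Poisson interval 2302 to 2492), 1879 in control 2 (1751 to 2014) and 1010 in the mutant (942 to 1081), a log2 ratio of -1.07 with a gap of 0.35. Ndn (-0.77, gap 0.14), Cdkn1c (-0.66, gap 0.37), Plagl1 (-0.59, gap 0.31), Mest (-0.55, gap 0.19) and Meg3 (-0.52, gap 0.34) were the others. Peg3 was above both controls (0.48, gap 0.20) but short of the limit, as was H19 (0.15, gap 0.09), and Igf2 and Grb10 lay between the controls. Without control 1, 3 were outside (Dlk1, Igf2 and Ndn), and with TMM 4 were (Dlk1, Cdkn1c and Ndn lower, and Peg3 higher). Dlk1 in perimysial cells was outside under every setting that left at least 20 cells in each library, with log2 ratios from -0.86 to -1.25. The paper that reported these data had named Dlk1, from other soft palate libraries, among the signals more enriched in perimysial fibroblasts. It described Dlk1 as apparently unaffected in the mutant perimysial cells. That reading came from a plot of clustered cells, with the 2 controls combined into 1 sample, and not from this gate or from levels per library. The reason for the different readings was not tested. Perimysial cells of the mutant differed in other ways: Agtr2 was at 115 CPM against 363 and 320 CPM, whereas Aldh1a2 was at 112 CPM against 58.0 and 131 CPM, and the summed gate markers Hic1 and Ebf2 were at 427 CPM against 375 and 472 CPM. The part of such differences in the lower Dlk1 was not tested.

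In osteogenic cells 2 of the 10 genes were outside the controls, Peg3 higher (441 CPM against 148 and 299 CPM, log2 ratio 1.07, gap 1.01) and Mest lower (390 CPM against 571 and 564 CPM, -0.54, gap 0.02), where 11.0% of 2537 genes were outside in either direction. With TMM the 2 were Peg3 and Plagl1, both higher. Without control 1 there were 4 (Meg3, Igf2, Peg3 and Mest), without control 2 there were 6, of which 5 were higher, and by the mean over cells Mest alone was outside. In midline cells Peg3 alone was outside (489 CPM against 254 and 323 CPM, 0.77, gap 0.34), where 2.0% of 2903 genes were higher by this rule. In myogenic cells, which Osr2-Cre does not target, Mest alone of the 10 genes was outside (432 CPM against 654 and 630 CPM, -0.57, gap 0.05), where 8.22% of 2335 genes were lower. Cdkn1c was at 5835 CPM there against 5736 and 5833 CPM. In epithelial cells 0 of the 9 genes with at least 50 CPM were outside, where 8.17% of 2865 genes were. With TMM, Cdkn1c and Mest were outside there and higher, without control 2 Peg3 and Mest were, also higher, and without control 1 Igf2 was, lower. Peg3 was above both controls in 6 of the 7 classes, macrophages included (41.5 CPM against 24.3 and 28.4 CPM), and between them in myogenic cells. The macrophage levels were under the limit of 50 CPM used for the shares of all genes. Among the other imprinted genes of at least 50 CPM in the mesenchyme, 3 of 10 were outside the controls, where 8.61% of 2879 genes were. Rian (216 CPM against 306 and 423 CPM, -0.73, gap 0.46) and Nnat (119 CPM against 196 and 186 CPM, -0.69, gap 0.08) were lower. Asb4 was higher by 1.08, barely more than its gap of 1.07. It was among these 10 genes only through its mutant level, as was Airn, which was not counted as outside. Asb4 had 23.8 CPM in control 1 and 73.1 CPM in the mutant, with control 2 between them. In the untargeted myogenic cells 5 of 11 other imprinted genes were outside the controls, where 284 of 2335 genes were. In perimysial cells it was 3 of 13 (450 of 3034 genes), and in midline cells 1 of 8 (229 of 2903 genes). In osteogenic cells it was 1 of 6 (280 of 2537 genes), and in epithelial cells 0 of 6 (234 of 2865 genes).

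**Figure D4:**
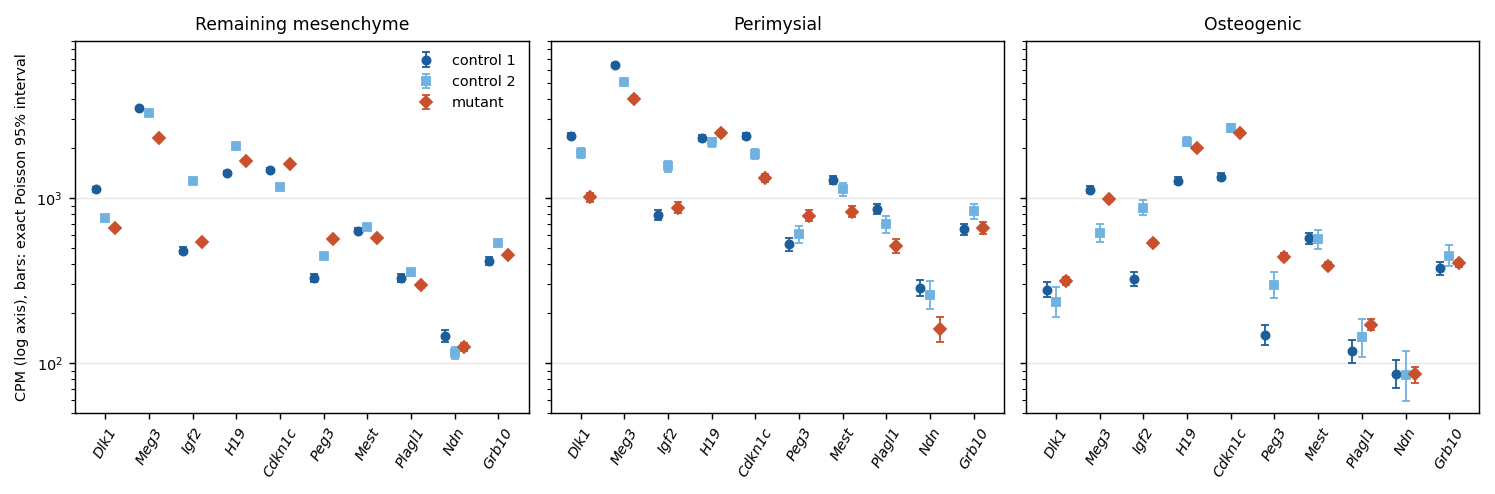
CPM on a log axis of the 10 genes in the remaining mesenchyme, perimysial cells and osteogenic cells of control 1 (circles), control 2 (squares) and the mutant (diamonds), with exact Poisson 95% intervals as bars, which for most points are smaller than the symbol. In perimysial cells the mutant diamond for Dlk1 (1010 CPM) lies below both controls (2396 and 1879 CPM), and in all 3 panels that for Peg3 lies above both.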

How the data were processed

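Single-cell libraries of 2 control and 1 mutant E14.5 soft palates were used, with groups taken from the labels. The authors deposited raw UMI counts per gene and barcode, filtered to cells; the matrix headers name Cell Ranger 4.0.0, and the submitters' processing notes name Cell Ranger 3.1.0 and mm10 (GRCm38). These counts came from transcript ends, so levels were not compared between genes.

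The 10 genes and the lists were chosen with earlier results of these data known. Barcodes with fewer than 500 genes or over 10% mitochondrial UMIs were dropped, which kept 2117, 3821 and 8111 cells. A cell entered a lineage with at least 4 of its different markers (3 for mural cells and neutrophils), or the mesenchyme with at least 2, with under 3 markers of any other lineage, and for lineages under 3 mesenchyme markers. These limits were raised after levels of Col1a1 and of markers of other types had been seen, not from the 10 genes. Of the cells kept, 74.9, 65.7 and 60.9% were gated in control 1, control 2 and the mutant. Cells with markers of 2 classes (227, 243 and 767) were left out as possible doublets, as were mesenchymal cells in 2 subset gates (111, 147 and 412). Scrublet's own threshold marked 0, 0 and 1 cells and was not used. Cell classes are rebuilt from markers and may differ from those of the study.

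UMIs were summed per class and library (CPM) and tested with edgeR 4.0.16 (quasi-likelihood, library as a block, TMM scaling, genes with at least 10 UMIs in 3 sums, Benjamini-Hochberg adjustment) for classes with at least 20 cells in each library, with DESeq2 1.42.0 as an alternative. The script was tested on simulated data. SE is the log2 fold change divided by the square root of F. All 10 genes are named; of the other imprinted genes, those called, at most 3 per direction; and the 3 genes most like each in pattern. Alternatives covered filters, gates, doublets, scaling, weighting of cells and leaving out each library.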

Additional observations from a re-analysis of the deposited data

Results flagged for a closer look

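For 4 genes the mutant lay above both controls in one cell class and below both in another by more than the gap between the controls, and this difference between classes was not tested. The log2 ratio of mutant to controls for Dlk1 was -1.07 in perimysial cells, 0.29 in osteogenic cells and 0.32 in epithelial cells. For Cdkn1c it was -0.66 in perimysial and 0.38 in epithelial cells. For Plagl1 it was -0.59 in perimysial and -0.17 in midline cells but 0.39 in osteogenic and 0.26 in myogenic cells. For H19 it was 0.15 in perimysial and -0.20 in myogenic cells.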

How the results depend on the processing

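Of 62 recomputed counts of called genes, 58 stayed within 1.5 times the main count; the other 4 were all in perimysial cells, with 0 called without a filter on low counts, 2 by DESeq2, and 0 to 3 when a library was left out. Of 62 counts at any fold 12 moved by more: in myogenic cells from 5 to 2 or 3 under 8 settings, in midline cells from 0 to 1 or 2 under 3, and in osteogenic cells from 5 to 3 without control 2. Of 309 values set against the controls 31 moved. Perimysial and osteogenic cells gave no value with 1 more marker per gate or with gates on thinned cells, since under 20 cells remained in a library. No paired analysis of genotypes was possible, because there was 1 mutant library and the labels link no control to it. Of the genes outside the controls, the number in the mesenchyme was 1 with TMM and in perimysial cells 3 to 7 with a control left out. The log2 ratio of Dlk1 was -0.78 in all mesenchymal cells in place of perimysial cells. The median r in control 1 was 0.304 on unthinned counts, where the 95th percentile over all gene pairs was 0.099. DESeq2 raised the median log2 fold change of all genes from -0.31 to -0.20 in macrophages and from -0.32 to -0.21 in myogenic cells, with the same number of the 10 genes called. Counts over all genes moved by over 1.5 times in midline cells, from 22 to 55 without the filter, 3 by DESeq2, 78 with 1 more marker, 48 with gates on thinned cells, 13 without control 2 and 12 without the mutant; in perimysial cells, from 146 to 258 without the filter and 80 without control 2; in osteogenic cells, from 866 to 568 without the mutant; in myogenic cells, from 3214 to 2055 without control 2; and in epithelial cells, from 2805 to 1862 without control 1 and 1778 without control 2.

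Of 620 single values, 21 changed sign. With gates on thinned cells, which left 26 to 34 myogenic cells per library, the myogenic values were 0.81 for Meg3, -0.48 for Mest, -0.52 for Plagl1, 0.010 for H19, 0.13 for Igf2 and 0.11 for Grb10, the midline values 0.052 for Dlk1 and 0.059 for Meg3, and the dividing values -0.042 for Mest and 0.0074 for Ndn. Meg3 in myogenic cells was 0.026 with the lower cell filter and 0.017 with 1 more marker. Grb10 in osteogenic cells was -0.048 without a filter on low counts. With a library left out, the ranges were -0.20 to 0.011 for Meg3, -0.00100 to 0.20 for Mest, -0.013 to 0.32 for Peg3 and -0.033 to 0.33 for Plagl1 in myogenic cells, -0.028 to 0.092 for H19, -0.032 to 0.092 for Igf2 and -0.089 to 0.026 for Meg3 in midline cells, and -0.016 to 0.036 for Grb10 in osteogenic cells. The cause was not tested.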
